A study of Drosophila melanogaster with 12 samples.

Results

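The 7 genes RpI1, RpI135, RpI12, CG3756, Tif-IA, RpIII128 and Brf encode subunits and initiation factors of RNA polymerase I (Pol I) and RNA polymerase III (Pol III). They were chosen by gene name among the 10287 genes counted by RNA-seq, with earlier results of these data known. Of the 10269 merged ATAC-seq peaks, 4 are annotated to them. All 7 passed the filter on low counts, as did 8683 genes in all. Pol I transcribes the large ribosomal RNA precursor in the nucleolus, and Pol III transcribes 5S rRNA, tRNAs and other short RNAs. Each enzyme has its own large catalytic subunits and also uses smaller subunits that other polymerases share. In growing cells both enzymes feed ribosome production, and nutrient and insulin signals through TOR and Myc are known to raise their output in flies.

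S2 cells are a macrophage-like line from late Drosophila melanogaster embryos, labelled as male and of Oregon-R origin. After serum withdrawal, they were exposed for 4 h to 10 µM insulin (the sample labels write 10 M) or to a vehicle of 25 mM HEPES (pH 8.2). RNA-seq and ATAC-seq were performed on 3 samples per treatment and assay. RNA-seq counts the reads of each gene after removal of rRNA, and ATAC-seq marks accessible DNA by where a transposase inserts adapters. All samples come from 1 cell line, and although the paper calls the ATAC-seq samples biological replicates, it does not state separate cultures, so that p-values measure only the spread between these samples.

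The 6 RNA-seq libraries, X4 to X6 after insulin and X1 to X3 after vehicle, held 7132065 to 10256535 counts, and values per library are given in that order. Divided by its degrees of freedom, the chi-square was 21.8 to 28.4 between insulin and vehicle libraries and 2.27 to 6.83 within a treatment. Of 11 haemocyte and S2 cell markers, 7 were in the count table by name, all above 1 CPM (the count scaled to a common library total). Their summed level was 1201 to 1300 CPM after insulin and 1495 to 1554 CPM after vehicle. For markers, CPM uses the library total alone, and for all other genes it is adjusted by the trimmed mean of M-values (TMM). The lower marker sum after insulin moved with the treatment, and its part in the results was not tested. The 4 muscle markers summed to 1.40 to 3.45 CPM after insulin and 1.85 to 3.93 CPM after vehicle, and 0 of 4 fat body markers were in the table. The 4 neuron markers summed to 64.3 to 65.2 CPM after insulin and 56.6 to 65.0 CPM after vehicle, nearly all from elav, and the 4 germline markers to 115 to 126 CPM after insulin and 134 to 139 CPM after vehicle, nearly all from aub. Act57B and vas were at 0 counts in at least 1 library. In bulk RNA, a change in cell number and a change in RNA per cell cannot be told apart.

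Several of the Pol I genes carry the same short motif just after their start, and the sequences are shown because these genes also had the largest rises in RNA of the listed polymerase genes. The motif is the E-box CACGTG, which reads the same on both strands and is the site that Myc with Max is known to bind. In the dm6 reference (RefSeq, Release 6), the 30 bases around it on the strand of the gene are as follows, with the E-box in capitals.

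RpI135: gattccaaacaaCACGTGcgaaggaaggca
RpI12: aatccgaaatagCACGTGcggtttttgtat
CG18600: ttttgttttccaCACGTGcaacatttgaat
CG3756: tattgattccaaCACGTGcggttcaatttt

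These runs lie at chr2L:404302-404331 on the plus strand for RpI135, at chr3R:21777799-21777828 on the minus strand for RpI12, at chr3R:18301690-18301719 on the minus strand for CG18600, and at chr2L:4969024-4969053 on the plus strand for CG3756. Each lies in the annotated leader (the untranslated stretch of the first exon) and holds no coding base. CG18600, named Polr1E in the reference and a further Pol I subunit gene, is not among the 7. Counted from 1 at the annotated start, the E-box began at base 30 in RpI135, 32 in RpI12, 33 in CG3756 and 22 in CG18600. RpI1, on 2R, also had an E-box in its leader, beginning at base 30, and its sequence is not shown.

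The E-box was thus found in 4 of the 7 genes within a window of 250 bases before to 50 bases after the start. It was present in 581 of 13900 such windows of protein-coding genes (4.18%), and in the 50 bases after the start of 187 (1.35%). Tif-IA, RpIII128 and Brf had no CACGTG in the window. A search of both strands for 4 other motifs found TATCGATA, the element known as DRE, at RpIII128 alone, 14 to 7 bases before the start, where 9.27% of all windows hold it. GGTCACACT (6.05% of all windows), TGTTTAC (9.24%) and TATAAA (45.9%) were in none of the 7 windows. No motif overlapped another in these windows. A match of letters is a description and does not show that a factor bound there.

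RNA of all 7 genes rose after insulin, with the largest values in the Pol I subunit genes and the smallest in RpIII128 and Brf. On the log2 scale the rises ran from 1.18 in RpI1 to 0.26 in Brf, with a median of 0.99 over the 7 genes and of -0.01 over all 8683 tested genes. All 7 passed a false discovery rate (FDR) < 0.05 as higher in the quasi-likelihood test of edgeR (adjusted by Benjamini and Hochberg's method over all tested genes), where 27.0% of all tested genes did so, and 50.0% passed in either direction. In all 7 the insulin libraries lay above the vehicle libraries with no overlap, as in 28.8% of all tested genes, and 55.6% had no overlap in either direction. Rises of at least 1.5-fold at the same FDR were seen in 5 of the 7 genes and in 6.05% of all tested genes. Because the 7 were chosen with earlier results known, these shares are a description only. The 7 genes together took 0.106 to 0.111% of the counts in the insulin libraries and 0.0624 to 0.0646% in the vehicle libraries.

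**Figure D1:**
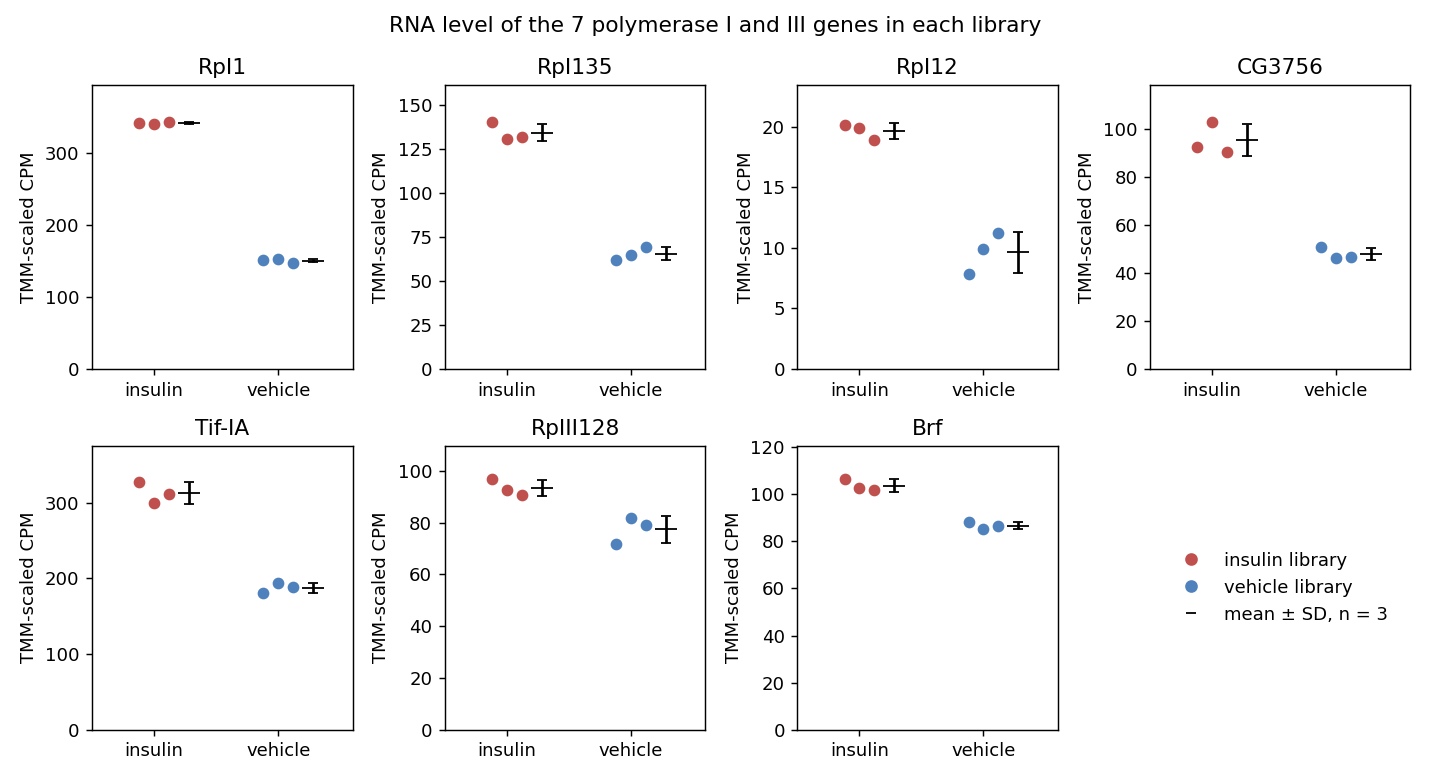
RNA level (CPM scaled by TMM, y axis, from 0) of each of the 7 genes in the 3 insulin libraries (left, red) and the 3 vehicle libraries (right, blue), with the mean and SD beside them. The insulin points lie above the vehicle points in every panel, with the widest separation at RpI1 (340.9 against 150.4 CPM on average) and narrow ones at RpIII128 and Brf.

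RpI1 encodes the largest subunit of Pol I, which forms the catalytic centre together with the second largest. It lies at chr2R:14595611-14601216 on the minus strand and is named Polr1A in the reference. Its RNA was 341, 340 and 342 CPM in the insulin libraries and 151, 152 and 148 CPM in the vehicle libraries. The libraries of a treatment lay within a few CPM of each other, and the groups were far apart. The log2 fold change was 1.18 (standard error 0.035, 95% interval 1.11 to 1.25, edgeR FDR = 6.5e-29), which placed RpI1 at rank 40 of the 8683 tested genes by rise. It overlaps CG12869 on the opposite strand by 7 bp, a gene with 2 to 7 counts per library.

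RpI135 (Polr1B) encodes the second largest subunit of Pol I, at chr2L:404285-407969 on the plus strand. It had 140, 131 and 132 CPM after insulin and 62.1, 64.9 and 69.3 CPM after vehicle. The lowest insulin library stood at 1.89 times the highest vehicle library. RpI135 rose by 1.04 on the log2 scale (standard error 0.047, 95% interval 0.94 to 1.13, edgeR FDR = 1.5e-22), at rank 90. No annotated gene overlaps it.

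RpI12 (Polr1H) encodes a small Pol I subunit related to the RNA cleavage factor of Pol II, at chr3R:21777203-21777847 on the minus strand. It was the least abundant of the 7, with 196, 138 and 138 raw counts in the insulin libraries and 71, 80 and 118 in the vehicle libraries. These correspond to 20.2, 19.9 and 18.9 CPM after insulin and 7.82, 9.87 and 11.2 CPM after vehicle. The vehicle libraries were spread more widely than the insulin libraries, yet did not reach them. The log2 fold change was 1.02 (standard error 0.115, 95% interval 0.79 to 1.25, edgeR FDR = 3.6e-10), the widest interval of the 7 genes. CG6800, which overlaps it on the opposite strand by 11 bp, also rose, by 1.18 on the log2 scale (edgeR FDR = 0.0030), at 2.43 CPM after insulin and 1.04 CPM after vehicle.

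CG3756 (Polr1C) encodes a subunit that Pol I and Pol III share, where it helps to assemble the core of both enzymes. It lies at chr2L:4969004-4970216 on the plus strand, and had 92.7, 103 and 90.5 CPM after insulin and 51.0, 46.4 and 46.6 CPM after vehicle. The lowest insulin library, at 90.5 CPM, was well above the highest vehicle library, at 51.0 CPM. CG3756 rose by 0.99 on the log2 scale (standard error 0.056, 95% interval 0.88 to 1.10, edgeR FDR = 3.5e-19). A gene on the opposite strand that overlaps CG3756 by 82 bp had a log2 fold change of -0.00 (edgeR FDR = 0.968).

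Tif-IA encodes the factor that recruits Pol I to the rRNA promoter and that in mammals and flies is a target of TOR signaling. It lies at chr2L:22249876-22258260 on the plus strand. Its RNA was 328, 299 and 312 CPM after insulin and 180, 194 and 189 CPM after vehicle. All insulin libraries were above all vehicle libraries, by a smaller factor than for the Pol I subunits. The log2 fold change was 0.74 (standard error 0.037, 95% interval 0.66 to 0.82, edgeR FDR = 7.4e-21), at rank 342.

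RpIII128 (Polr3B) encodes the second largest subunit of Pol III, the counterpart of RpI135, at chr2R:12039041-12042623 on the plus strand. It had 96.7, 92.5 and 90.5 CPM after insulin and 71.5, 81.7 and 79.1 CPM after vehicle. The lowest insulin library stood only slightly above the highest vehicle library. RpIII128 rose by 0.27 on the log2 scale (standard error 0.050, 95% interval 0.17 to 0.37, edgeR FDR = 1.3e-05). The gene 128up, which ends 189 bp before it on the same strand, rose by 0.56 on the log2 scale (edgeR FDR = 5.2e-13).

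Brf encodes the TFIIB-related subunit of TFIIIB, the factor that places Pol III at its promoters, at chr3R:17374833-17391337 on the minus strand. It had 107, 103 and 102 CPM after insulin and 88.2, 85.4 and 86.5 CPM after vehicle. The groups were separate, and the libraries within each were close. The log2 fold change was 0.26 (standard error 0.045, 95% interval 0.17 to 0.35, edgeR FDR = 4.0e-06). The gene lute overlaps Brf on the opposite strand over 10322 bp of the gene spans, introns included. It moved the other way, by -0.25 on the log2 scale (edgeR FDR = 1.4e-04). Reads were counted by strand, but the kit as named does not say that it marks strand. Reads of Brf and lute may thus not be fully separated where their exons overlap, a length that was not measured.

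Measured per kilobase of annotated exon, Tif-IA had the highest level of the 7 and RpIII128 the lowest after insulin. Levels are TMM-scaled CPM per kb, with SD over 3 libraries. Tif-IA had 146 ± 6.63 after insulin and 87.7 ± 3.13 after vehicle, and CG3756 had 82.7 ± 5.72 after insulin and 41.6 ± 2.24 after vehicle. RpI1 had 67.1 ± 0.260 after insulin and 29.6 ± 0.483 after vehicle, RpI135 had 37.6 ± 1.43 after insulin and 18.4 ± 1.02 after vehicle, and RpI12 had 37.1 ± 1.23 after insulin and 18.2 ± 3.22 after vehicle. The 3 Pol I subunits were thus about 2 times as high after insulin per unit length as after vehicle. Brf had 34.8 ± 0.892 after insulin and 29.1 ± 0.474 after vehicle, and RpIII128 had 26.4 ± 0.887 after insulin and 21.9 ± 1.49 after vehicle. After insulin the order was Tif-IA, CG3756, RpI1, RpI135, RpI12, Brf and RpIII128, where RpI135 overlapped RpI12 and RpI12 overlapped Brf. After vehicle, the order was Tif-IA, CG3756, RpI1, Brf, RpIII128, RpI135 and RpI12, where RpI1 overlapped Brf and the wide range of RpI12 (14.7 to 21.1) overlapped those of RpI135 and RpIII128 (20.3 to 23.1).

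RNA levels per kb of the genes of the second largest subunits of the 2 enzymes changed order between the treatments. The ratio of RpI135 to RpIII128 per kb was 1.43, 1.40 and 1.44 in the insulin libraries and 0.860, 0.787 and 0.868 in the vehicle libraries. RpI135 RNA per kb was thus the higher of the pair in every insulin library and the lower in every vehicle library. The ratio of Tif-IA to Brf averaged 4.20 ± 0.121 after insulin and 3.01 ± 0.156 after vehicle (SD, n = 3 each), also with no overlap. Within Pol I, RpI12 to RpI135 averaged 0.987 ± 0.0344 after insulin and 0.985 ± 0.124 after vehicle, and RpI1 to RpI135 averaged 1.79 ± 0.0652 after insulin and 1.62 ± 0.110 after vehicle. In two-sided exact permutation tests of the 4 ratios, p was 0.1 for RpI135 to RpIII128, Tif-IA to Brf and RpI1 to RpI135, the smallest that 3 libraries against 3 allow, and 0.9 for RpI12 to RpI135. After Benjamini-Hochberg adjustment over the 4 ratios these exact p-values were 0.133 and 0.9.

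**Figure D2:**
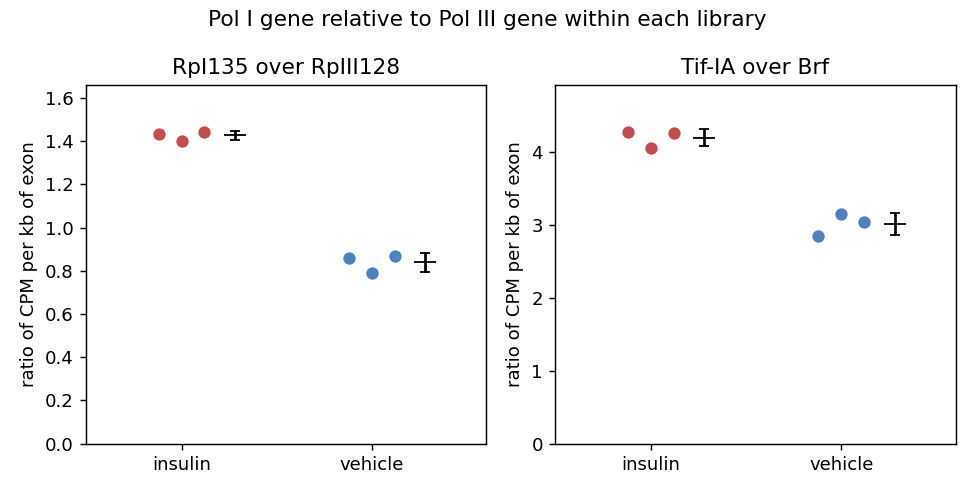
Ratio of RNA levels per kb of exon (y axis, from 0) for RpI135 over RpIII128 (left panel) and Tif-IA over Brf (right panel) in each insulin library (red) and vehicle library (blue), with mean and SD. The RpI135 ratio lies above 1 in all 3 insulin libraries and below 1 in all 3 vehicle libraries.

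Among the other polymerase genes, all tested subunit genes of Pol I and all tested shared subunit genes rose. Of 4 Pol I initiation factor genes 2 rose, and of 6 tested subunit genes used by Pol II alone 1 rose. For all tested genes, 27.0% were called higher, and 50.0% passed in either direction. The lists are short, and differences between them were not tested. All 5 tested genes of Pol I subunits rose, with a median log2 fold change of 1.04. Besides RpI1, RpI135 and RpI12 these were CG18600 (Polr1E), at 1.17, and CG13773 (Polr1F), at 0.83 (edgeR FDR = 2.7e-10). CG18600 had 75.8, 79.9 and 79.3 CPM after insulin and 36.2, 33.3 and 34.7 CPM after vehicle. In yeast the counterparts of both act in initiation by Pol I.

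All 7 shared subunit genes rose, with a median of 0.78. CG3756 and l(2)37Cg (Polr1D, log2 fold change 0.94), the pair shared by Pol I and Pol III, had the largest values. They were followed by Rpb5 (0.92), RpII18 (0.78), Rpb8 (0.58), Rpb10 (0.55) and Rpb12 (0.39), which all 3 enzymes use. The rise of Rpb12 was the smallest of the list. The differences between these genes were not tested.

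Of the 4 Pol I initiation factor genes, 2 rose, with a median of 0.19 over the list. Tif-IA rose most. TAF1B, of the promoter selectivity factor, rose by 0.25 on the log2 scale (edgeR FDR = 2.4e-05). TAF1C-like, at 0.13 (edgeR FDR = 0.0826), and udd, at -0.05 (edgeR FDR = 0.597), did not pass the test. Without vehicle library X3, TAF1C-like passed (log2 fold change 0.19, edgeR FDR = 0.0267).

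Of the 9 tested Pol III subunit genes, 7 rose, 1 fell and 1 did not pass, with a median of 0.34. The largest rises were CG33051 (0.94 on the log2 scale), CG7339 (0.79) and CG5147 (0.55). CG33051 had 15.7, 16.5 and 13.9 CPM after insulin and 7.15, 9.01 and 7.97 CPM after vehicle, a change near that of the Pol I subunits. RpIII128 was below the median of the list, and the gene of the largest subunit, CG17209 (Polr3A), was at it, at 0.34. CG5380 was called lower, at -0.32 (edgeR FDR = 0.0332), but its 12.1, 14.0 and 16.5 CPM after insulin overlapped its 19.5, 18.9 and 14.5 CPM after vehicle, and 7 of 14 alternative analyses did not call it. Its edgeR FDR was 0.0728 to 0.258 without X1, X2, X4 or X5. Rcp had 0.18 (edgeR FDR = 0.0616), and passed without insulin library X4 (edgeR FDR = 0.0456) or X5 (edgeR FDR = 0.0442). CG12267, at 0.27 (edgeR FDR = 0.0159), was not called in 5 of 14 alternative analyses, which were edgeR without X1, X4 or X6 (FDR = 0.0533 to 0.0732), edgeR with upper-quartile size factors (FDR = 0.0529) and DESeq2 (adjusted p = 0.113).

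Of the 5 tested Pol III factor genes, 3 rose, with a median of 0.26. Trf, which takes the place of TBP at Pol III genes in Drosophila, rose by 0.41 (edgeR FDR = 1.9e-04), CG9305 (Bdp1) rose by 0.35 (edgeR FDR = 5.2e-04), and Brf by 0.26, so that the 3 parts of TFIIIB were all higher. The genes of the small nuclear RNA activating complex, Pbp45 at -0.18 and Pbp95 at -0.11, did not pass the test. Polr3K, Maf1 and Pbp49 were not analysed here.

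Of the 6 tested genes of subunits found in Pol II alone, 1 rose, with a median of 0.06. RpII215, the largest subunit, rose by 0.25 on the log2 scale (edgeR FDR = 1.1e-08). Rpb11 had 0.14 (edgeR FDR = 0.0583) and passed without vehicle library X1 (edgeR FDR = 0.0261). RpII140, the second largest and the counterpart of RpI135 and RpIII128, had a log2 fold change of 0.00. Its sign turned in 8 of 14 alternative analyses. RpII15 had the lowest value, -0.03 (edgeR FDR = 0.806). Polr2D was not analysed here. Counts of members called in these lists are read against the 27.0% of all tested genes called higher and the 23.1% called lower.

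**Figure D3:**
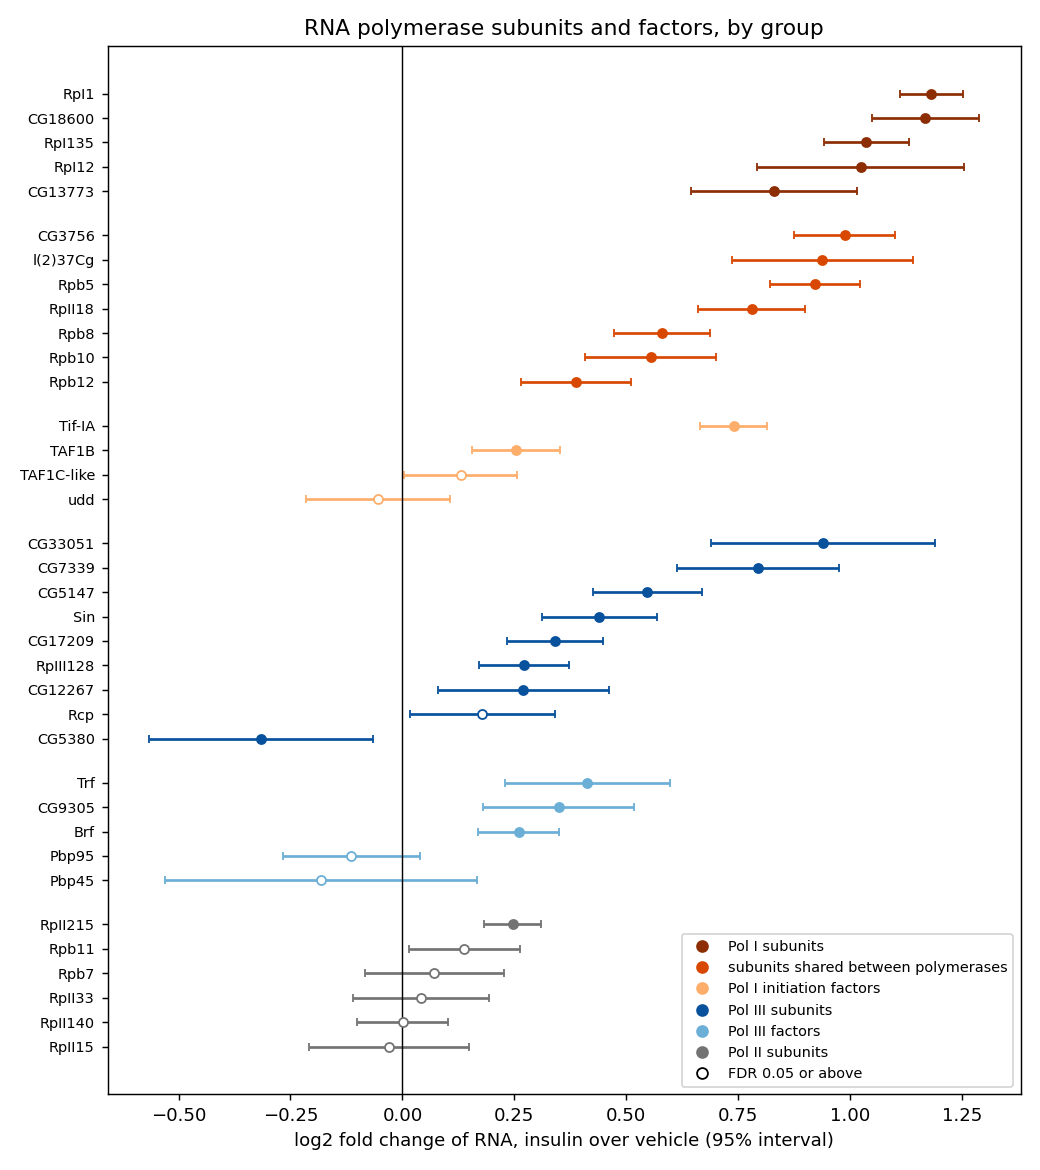
Log2 fold change of RNA, insulin over vehicle (x axis), with its 95% interval for each tested polymerase gene, grouped by list from Pol I subunits at the top to Pol II subunits at the bottom. Filled points passed FDR < 0.05. The Pol I subunits lie between 0.83 and 1.18, and the Pol II subunits lie around 0, RpII215 the highest at 0.25.

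Few of the RNAs in the lists of Pol III and Pol I products passed the test in these libraries, from which rRNA had been removed. Of 43 listed Pol III products in the table, 18 passed the filter on low counts. Of these, 1 rose, 3 fell and 14 did not pass the test, with a median log2 fold change of -0.12. By the same test, 27.0% of all tested genes were called higher and 23.1% lower. The list holds RNaseP:RNA, whose gene in Drosophila is known to be transcribed by Pol II, and 2 genes named as pseudogenes. Without these, a selection made after the values were seen, 16 tested products remained, of which 1 rose, 2 fell and 13 did not pass, with a median of -0.03. RNaseMRP:RNA had 1738 ± 124 CPM after insulin and 2137 ± 135 CPM after vehicle (SD, n = 3 each), a log2 fold change of -0.30 (edgeR FDR = 0.0277), which was not called without insulin library X4 (edgeR FDR = 0.102). snRNA:7SK, at -0.15 (edgeR FDR = 0.233), did not pass the test, and was called lower in 2 of 14 alternative analyses, limma-voom (FDR = 0.0288) and the non-robust edgeR fit (FDR = 0.0360). Of the products with few counts, snRNA:U6atac:29B fell, with 1.59 CPM after insulin and 3.68 CPM after vehicle (edgeR FDR = 8.8e-04). tRNA:P:3E rose, with 3.61 CPM after insulin and 2.21 CPM after vehicle (edgeR FDR = 0.0122), but was not called by DESeq2 (adjusted p = 0.0903) or by edgeR without X3 or X4 (FDR = 0.113 and 0.112). The pseudogene tRNA:HPsi fell, with 0.966 CPM after insulin and 2.73 CPM after vehicle (edgeR FDR = 1.6e-04).

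The list of Pol I products is mostly of rRNA pseudogenes. Of its 14 genes with counts, 11 passed the filter, and 9 of these are named as pseudogenes. None of the 11 was called by edgeR with TMM scaling, where 50.0% of all tested genes passed in either direction. In that test 0 of the 11 had an unadjusted p under 0.05. None was called by DESeq2 (0 calls) or by limma-voom (0 calls). The others were pre-rRNA:CR45845, at 0.15 on the log2 scale (edgeR FDR = 0.920), and 2SrRNA:CR45864, at -1.05 (edgeR FDR = 0.303). In other edgeR analyses pre-rRNA:CR45845 was called higher without X2 (FDR = 0.0300). The pseudogene 28SrRNA-Psi:CR45859 was called lower without X3 (FDR = 0.0232) or X6 (FDR = 0.0284), with library totals alone (FDR = 0.0199) and with upper-quartile size factors (FDR = 0.0333). A level of RNA is not a rate of transcription.

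The genes whose pattern over the 6 libraries was most like the mean of the 7 were CG8611, CG1703, bsf, l(1)1Bi and CG9143. Likeness was the root mean square difference of log2 CPM, centred per gene, over 6 libraries, among 6178 genes at least as abundant as RpI12. It was 0.0179 for CG8611, 0.0185 for CG1703, 0.0273 for bsf, 0.0294 for l(1)1Bi and 0.0298 for CG9143. Of the 7 themselves, Tif-IA was nearest to their mean, at 0.0422, and Brf was farthest, at 0.265. The log2 fold changes of the 5 genes ran from 0.77 to 0.82, between those of Tif-IA and CG3756. bsf encodes an RNA-binding protein of mitochondria, and l(1)1Bi is named Mybbp1A, a nucleolar protein in mammals.

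Accessible DNA was called at the starts of 4 of the 7 genes. Peaks were called by the authors jointly on the samples of each treatment, so that the lists hold no spread between replicates and no test was made. A merged peak covers the start in 4 of the 7 genes and in 4384 of 7875 tested protein-coding genes (55.7%), a share near that of the 7. The starts of RpI12, RpIII128 and Brf lay 9437, 4281 and 2974 bp from the nearest peak. These 3 genes had measurable RNA in all libraries. The merged peak over the start of RpI135 comes from the vehicle list, and in the insulin list no peak covered the start of RpI135 or RpI12. How called peaks relate to the rises in RNA was not tested.

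The promoter peak of RpI1 (chr2R:14600811-14601400) was called in both treatments, over 430 bp with a score of 85 after insulin and over 590 bp with a score of 116 after vehicle. It covers the start and the E-box and ended 405 bp into the gene. Its mean normalized signal over all samples, as deposited, was 218, at percentile 39.0 among 6066 peaks in promoters of up to 1 kb. Divided by peak width, this signal was at percentile 57.5 of the same class. RpI135 (chr2L:403791-404450) had a peak in the vehicle list alone, of 660 bp and a score of 47, with a mean signal of 199 (percentile 33.2). Divided by peak width, the RpI135 signal was at percentile 17.4. Of all merged peaks, 12.4% were called after vehicle alone. The score ranks peaks within a list and was not compared between lists.

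Tif-IA had both a promoter peak and a distal peak. The promoter peak (chr2L:22249431-22250720) had a mean signal of 370, at percentile 66.2 of the promoter class, with scores of 89 after insulin and 104 after vehicle. Divided by its width of 1290 bp, the signal was at percentile 10.7 of that class, below the promoter peaks of RpI1 and RpI135. The distal intergenic peak (chr2L:22260841-22262790), 10965 bp from the start of Tif-IA and beyond its end, had a mean signal of 701 over 1950 bp, at percentile 79.3 of 910 peaks of its class, with scores of 446 after insulin and 401 after vehicle. This peak was assigned to Tif-IA by the nearest start, and divided by width its signal was at percentile 48.1 of its class. Of the 4 peaks of the 7 genes, 3 were called in both treatments, as were 78.8% of all merged peaks.

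The start of CG3756 lay in a wide peak of 4350 bp annotated to the neighbouring gene Trip1, with a mean signal of 1311. In the insulin list, a single peak ran over the start, from -3363 to 876 bp (score 162). The vehicle list held separate peaks in this region, from -3393 to -754 bp (score 237) and, over the start, from -343 to 956 bp (score 85). The mean signal covers the whole merged peak. Scox, which starts 68 bp away on the opposite strand, rose by 0.26 on the log2 scale (edgeR FDR = 9.0e-04), less than CG3756. At RpI1, Blos1 starts 61 bp away on the opposite strand and fell by 0.45 (edgeR FDR = 0.0020).

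**Figure D4:**
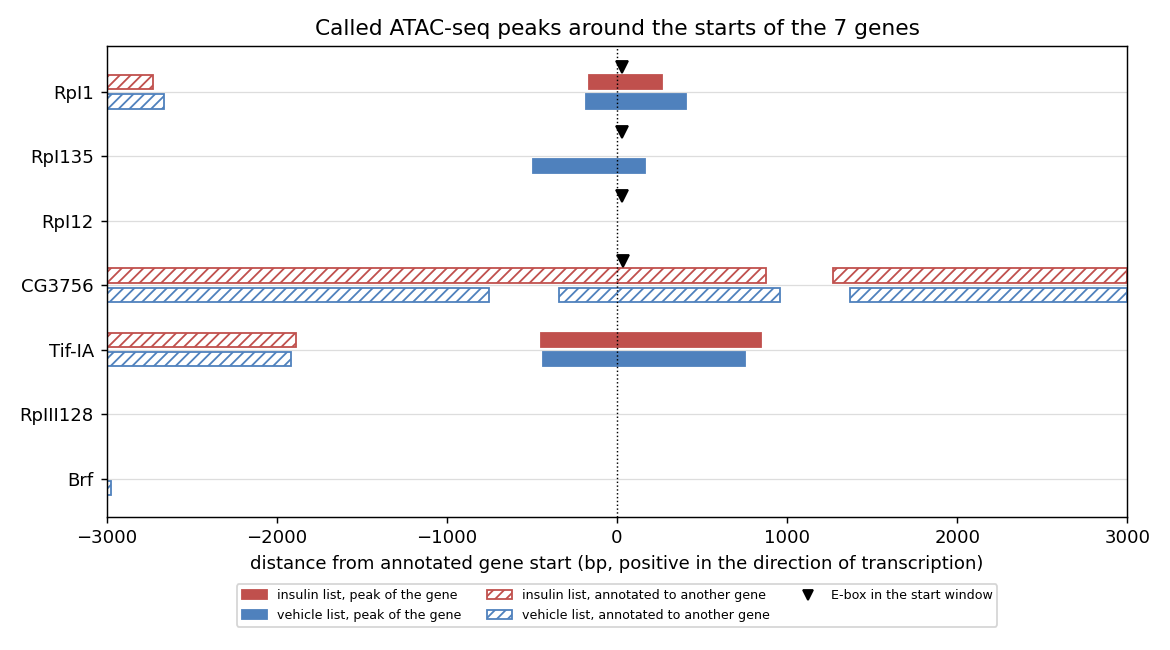
Called ATAC-seq peaks within 3000 bp of the annotated start of each gene (x axis, distance in bp, positive in the direction of transcription), with the insulin list above the vehicle list. Filled bars are peaks annotated to the gene, hatched bars those annotated to another gene, and triangles mark the E-box. RpI135 has a filled bar in the vehicle list alone, and no bar covers the start of RpI12, RpIII128 or Brf.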

How the data were processed

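RNA-seq and ATAC-seq of S2 cells were analysed from the files the authors deposited. For RNA-seq the authors used STAR on BDGP6 and then featureCounts by gene and strand, and the deposited counts are whole numbers that are not normalized. For ATAC-seq they used Novoalign on dm6, which put multiply matching reads at a random match, called peaks jointly over the samples of each treatment, and annotated merged peaks with ChIPseeker. The deposited signal of a merged peak is the authors' mean normalized count over all samples, and the deposited score of a listed peak comes from their caller. Versions of the tools named here were not given in the sources used here. Further deposited columns hold the authors' DESeq2 fold changes and p-values and their pathway results, none of which were used.

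Scaling was by TMM. The robust quasi-likelihood test of edgeR 4.0.16 (with R 4.3.3 and limma 3.58.1) was run on the 8683 genes that filterByExpr kept, with Benjamini-Hochberg adjustment at FDR < 0.05. The treatment of each library came from the deposited sample sheet. Depth was 7132065 to 10256535 counts per library, at a biological coefficient of variation of 4.40%. The fit was tested on simulated data. Alternatives were other size factors, filters and a non-robust fit, DESeq2 1.42.0, limma-voom, each library left out in turn, and for peaks a 50% overlap and a score threshold. Listed and merged peaks were matched where they overlapped by 1 bp or more. Motifs and sequences were read from the RefSeq Release 6 genome, whose gene coordinates equal those deposited for all 7 genes. Exact tests and figures used Python 3.11.15 with scipy 1.17.1, numpy 2.4.6, pandas 2.3.3 and matplotlib 3.10.9.

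Named genes were the 7 genes, up to 4 genes per list with the smallest FDR past the threshold, the lowest member of each list where it passed or where none fell, and the 5 genes of most similar pattern; further list members named were chosen after their values were seen. The members and lists were chosen with earlier results of these data known.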

Additional observations from a re-analysis of the deposited data

How the results depend on the processing

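All 7 genes kept their direction and stayed past FDR < 0.05 in all 14 alternative analyses of the RNA-seq counts (edgeR with other settings, DESeq2, limma-voom and each library left out). Over these the log2 fold change ran from 1.13 to 1.19 for RpI1, 0.98 to 1.09 for RpI135, 0.88 to 1.17 for RpI12, 0.93 to 1.02 for CG3756, 0.68 to 0.77 for Tif-IA, 0.21 to 0.30 for RpIII128 and 0.20 to 0.27 for Brf. The number of genes past the threshold ran from 3212 to 4539 against 4344, and from 3833 to 4094 with a library left out. With upper-quartile size factors 42.3% of the called genes were higher after insulin, against 53.9% with TMM, and the median over all genes was -0.07 against -0.01. With a library left out, the Pol II subunit genes called numbered 1 to 2, and the 2 included Rpb11 without vehicle library X1. The Pol III subunit genes called numbered 6 to 8 over all alternatives against 8. Restricted to peaks at or above the median score of their list (115 for insulin, 130 for vehicle), 1 of the 4 peaks was called in both treatments, against 3. This follows from the score threshold, which leaves fewer peaks. No paired analysis was possible because the count columns carry no replicate number and the sample sheet gives treatment only. Intervals cover the spread between libraries, and the depth limits RpI12 most, with 71 to 196 counts.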

Other observations

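Genes with an E-box in the 50 bases after their start, a stretch singled out after the positions in the Pol I genes were seen, were mostly higher after insulin. Of 137 such tested genes other than RpI1, RpI135, RpI12, CG3756 and CG18600, 124 (90.5%) were higher and 7 were lower by edgeR's quasi-likelihood test at FDR < 0.05, with a median log2 fold change of 0.91. Of 7720 tested genes without an E-box in this stretch, 2111 (27.3%) were higher, with a median of -0.01. These include genes with an E-box before the start, for which no separate share was computed. The shares are a description with no test, and genes that share a motif can share other features. Among the polymerase lists, an E-box in this stretch was found in 4 of 5 Pol I subunit genes and 1 of 7 shared subunit genes, and in none of the Pol III subunit, Pol III factor, Pol I initiation factor or Pol II subunit genes. Before the start, but within the full window, the Pol III subunit gene CG17209 (Polr3A) also had an E-box, at bases -47 to -42. Its log2 fold change was 0.34.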
